A study of Mus musculus with 6 samples.

Results

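A set of 10 long noncoding RNAs of the brain, 1500004A13Rik among them, was described in the hippocampus of DBA/2 and C57BL/6 mice. The set held 1500004A13Rik, Snhg11, Neat1, Malat1, Miat, Pantr1, Rmst, Meg3, Mirg and Rian, which were chosen by name with their strain differences already known. Of the 51912 genes in the deposited table, 9 members were matched by gene symbol, and Rmst was matched by its gene ID because the table lists it under another symbol. All 10 members were found. The values below therefore describe the members, and no p-value is given for them.

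Total RNA was sequenced from hippocampus with 3 libraries of the DBA/2 strain and 3 of the C57BL/6 strain, both common inbred laboratory strains. No treatment is given for either strain, and age, sex and substrain are not in the labels. The labels do not state plainly whether each library came from 1 mouse, so p-values here measure the spread between libraries. The comparison asks which hippocampal transcripts differ between the strains.

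Long noncoding RNAs are transcripts that are not known to be translated, and many stay in the nucleus. Neat1 is the scaffold of paraspeckles, and Malat1 collects in nuclear speckles, where splicing factors are stored. Meg3, Rian and Mirg are transcribed from the maternal copy of the imprinted Dlk1-Dio3 region, where Rian carries small nucleolar RNAs (snoRNAs) and Mirg carries microRNAs. Snhg11 is a snoRNA host gene. Miat is a nuclear RNA of neurons, Rmst acts with the transcription factor Sox2 in neurogenesis, and Pantr1 lies beside Pou3f3, a gene for a neural transcription factor.

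The libraries held between 13839366 and 20185683 counts. Changes are log2 fold changes of DBA/2 over C57BL/6 from edgeR's quasi-likelihood test. The standard error (SE) beside each was derived from that test, as the absolute change divided by the square root of its F statistic. An SE derived in this way can be too small where counts are few. A gene is called when its Benjamini-Hochberg adjusted p is under 0.05 over the 17517 genes that passed the filter on low counts. Counts scaled to library size (CPM) compare 1 gene between libraries, and FPKM, which also divides by exonic length, compares genes. That length covers all annotated exons of a gene and can exceed the length of any single transcript. C57BL/6 libraries 1 and 3 held 3214 and 6995 counts of Xist, the RNA of the inactive X chromosome in females, whereas C57BL/6 library 2 held 1 and the DBA/2 libraries held 2 to 12. With both of those libraries left out, Neat1 was the only member that lost its call. Of the other genes named below with a call, Gon4l, Gm27000, Mir453, Wars, Crnde, Tunar, Syt11 and Ralgapb lost theirs. That fit held 1 C57BL/6 library and lost many calls over the whole table. A call lost in it is therefore not read as a tie to sex.

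Of all genes tested, 22.8% were called in either direction, 9.09% higher and 13.7% lower in DBA/2. The filter kept 9 members and left out Rian. Of these 9 members, 5 were called, with Meg3 higher and 1500004A13Rik, Neat1, Rmst and Snhg11 lower in DBA/2. For these same 5 members no DBA/2 library lay within the range of the C57BL/6 libraries, which was also so for 36.8% of all genes tested, 16.7% of them higher and 20.1% lower in DBA/2 as shares of all genes tested. Because the members were chosen with this contrast known, nothing is read from these counts. In bulk tissue, fewer cells that make an RNA and less of the RNA per cell cannot be told apart.

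**Figure D1:**
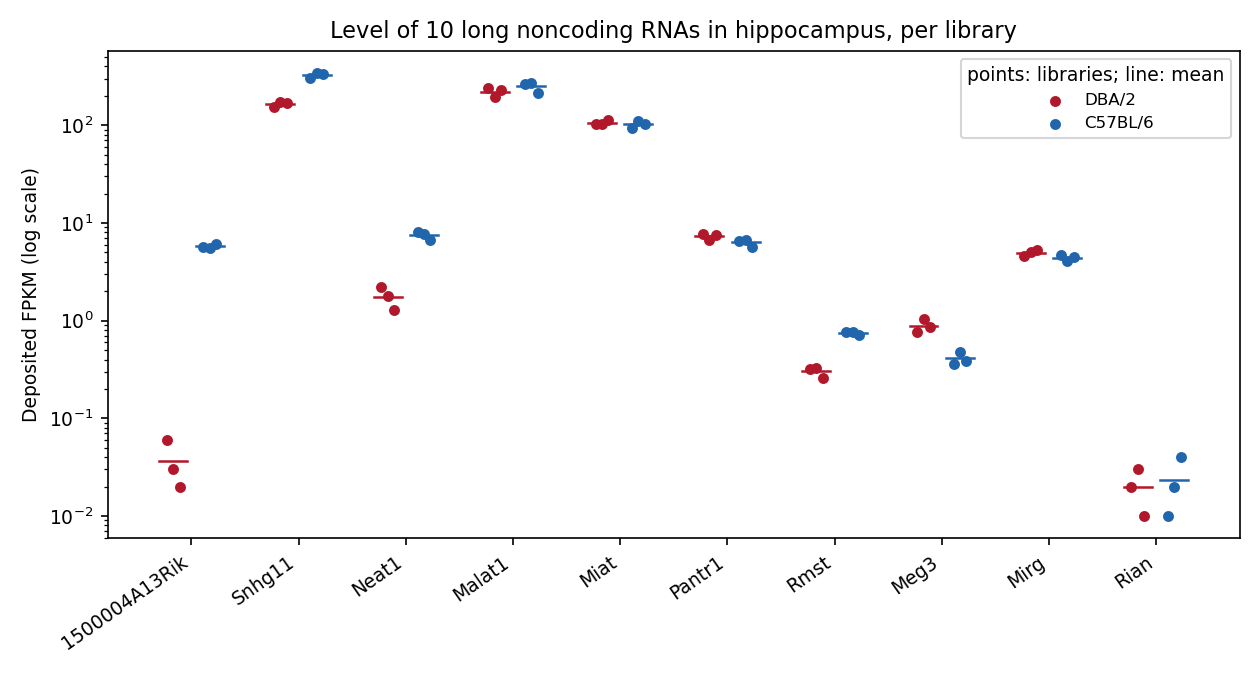
Deposited FPKM (log axis) of the 10 RNAs in each of 3 DBA/2 and 3 C57BL/6 libraries, with a line at each mean. The points of the strains are separate for 1500004A13Rik, Snhg11, Neat1, Rmst and Meg3 and overlap for the other 5.

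**Figure D2:**
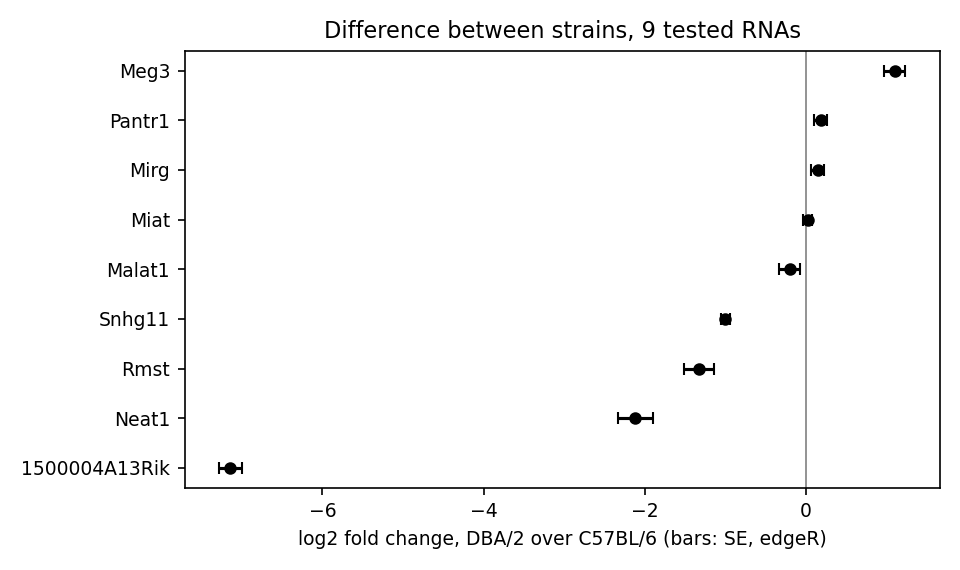
Log2 fold change of DBA/2 over C57BL/6 with its SE for the 9 tested RNAs, ordered from the highest value to the lowest. Meg3 stands at 1.11 and 1500004A13Rik at -7.14, and Miat lies at 0.03.

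1500004A13Rik (ENSMUSG00000098912) is annotated in GENCODE as a processed transcript on the minus strand of chr3:88782943-88832547 (GRCm38), with 13854 exonic bases. It had 15, 8 and 4 counts in the DBA/2 libraries, against 1325, 1060 and 1701 counts in the C57BL/6 libraries. Every C57BL/6 library was thus far above every DBA/2 library. In length-scaled units these were 0.06, 0.03 and 0.02 FPKM in DBA/2, against 5.68, 5.52 and 6.08 FPKM in C57BL/6. The log2 fold change was -7.14 ± 0.14 (SE), and the C57BL/6 mean CPM was 147 times the DBA/2 mean. The DBA/2 counts were few, so the fold is loosely fixed by them, and the SE understates its uncertainty. The fold ranged from -7.67 without DBA/2 replicate 1 to -6.88 without DBA/2 replicate 3.

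Part of 1500004A13Rik lies opposite a pseudogene, 5830417I10Rik, which is an unprocessed copy of part of the protein-coding gene Gon4l. The pseudogene runs on the plus strand at chr3:88775216-88825587, and 2897 exonic bases, or 20.9% of the exons of 1500004A13Rik, are shared with it on the opposite strand. Gon4l itself starts 2684 bases from 1500004A13Rik and encodes a nuclear regulator of transcription. A stretch of 2893 bases was 99.0% identical between transcripts of 5830417I10Rik and Gon4l. One 120-base window is printed to show where pseudogene and parent differ. It was picked as the window with the most differences among those compared, so it matches less closely than the whole stretch. Sequences are from GENCODE M21 (GRCm38), 5′ to 3′, and capitals mark the positions at which pseudogene and parent differ.
5830417I10Rik: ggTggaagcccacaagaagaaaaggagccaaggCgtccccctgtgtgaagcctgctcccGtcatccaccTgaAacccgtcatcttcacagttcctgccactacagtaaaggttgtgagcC
Gon4l: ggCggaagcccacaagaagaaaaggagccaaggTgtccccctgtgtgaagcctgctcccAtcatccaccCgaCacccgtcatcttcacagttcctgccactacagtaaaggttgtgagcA
1500004A13Rik: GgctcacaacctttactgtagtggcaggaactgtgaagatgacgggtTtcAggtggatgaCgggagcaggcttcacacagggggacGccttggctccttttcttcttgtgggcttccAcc
The 5830417I10Rik window is on the plus strand at chr3:88820637-88820756 and the Gon4l window is on the plus strand at chr3:88895409-88895528. The 1500004A13Rik window is the same stretch as that of the pseudogene, read on the minus strand, so its match to the pseudogene is fixed by position. Counted from 1 at the 5′ end, with the base of 5830417I10Rik first and that of Gon4l last, the differences are T3C, C34T, G60A, T70C, A73C and C120A.

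**Figure D3:**
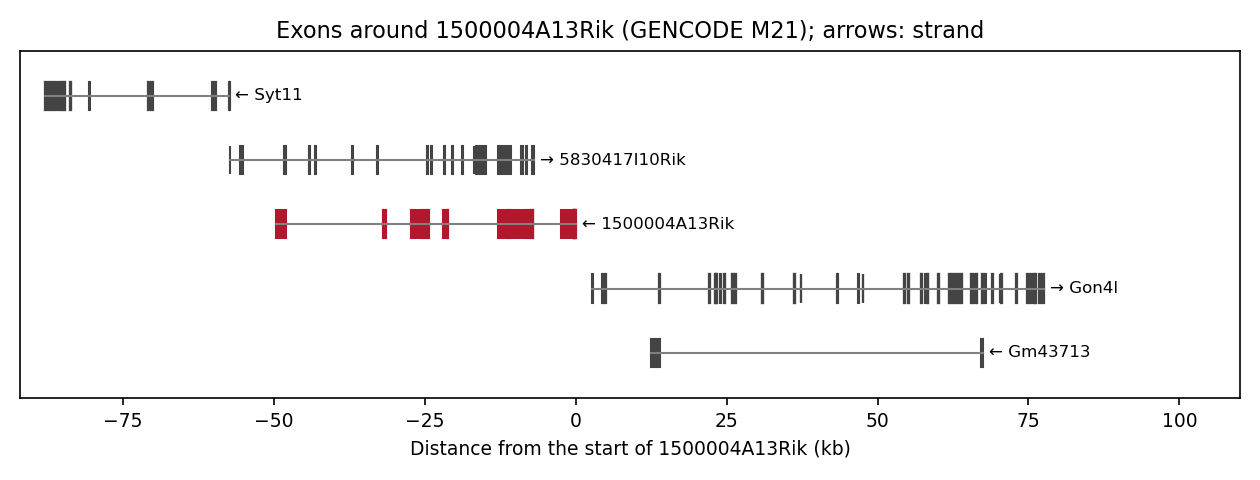
Exons (boxes) of 1500004A13Rik and its neighbours by distance in kb from the start of 1500004A13Rik, with positive values toward Gon4l and arrows for the strand. The exons of 1500004A13Rik lie among those of the pseudogene 5830417I10Rik on the opposite strand, and Gon4l begins on the other side of its start.

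5830417I10Rik had 49, 71 and 39 counts in the DBA/2 libraries, against 343, 261 and 425 in the C57BL/6 libraries. It was lower in DBA/2 in all libraries, at 3.29 ± 0.773 CPM in DBA/2 and 20.3 ± 1.13 CPM in C57BL/6 (SD, n = 3 each), with a log2 fold change of -2.62 ± 0.14 and an adjusted p of 5.75e-13 by edgeR's quasi-likelihood test. Gon4l went the other way, at 79.5 ± 7.11 CPM in DBA/2 and 64.8 ± 1.23 CPM in C57BL/6, with a log2 fold change of 0.30 ± 0.06 and an adjusted p of 0.00107 by the same edgeR test. The summed counts of Gon4l and 5830417I10Rik gave 82.8 ± 6.89 CPM in DBA/2 and 85.1 ± 0.264 CPM in C57BL/6, and the libraries of the strains overlapped. Summed with 5830417I10Rik, 1500004A13Rik stayed separate between the strains, at 3.84 ± 0.78 CPM in DBA/2 and 101 ± 4.90 CPM in C57BL/6. The kit does not mark strand, so reads of shared exons cannot be assigned to 1500004A13Rik or to the pseudogene. How reads were shared among the near-identical copies was not tested, and the values of the pseudogene and of Gon4l are uncertain for that reason. With C57BL/6 replicates 1 and 3 left out, 1 C57BL/6 library remained and Gon4l was no longer called.

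**Figure D4:**
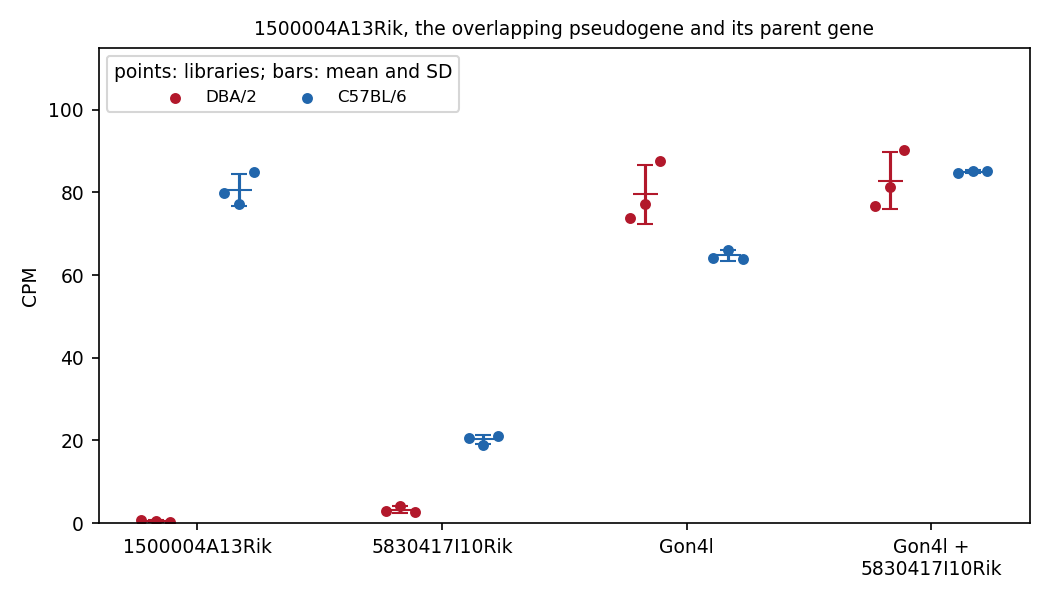
CPM of 1500004A13Rik, 5830417I10Rik, Gon4l and the sum of Gon4l and 5830417I10Rik in each library, with mean and SD (n = 3 each). The strains are separate for the first 3, whereas the sum is 82.8 CPM in DBA/2 and 85.1 CPM in C57BL/6.

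The genes whose log2 CPM followed 1500004A13Rik most closely over the 6 libraries were Pttg1, Myo7a and H2-T22, each with a Pearson r of 0.999 among 11529 genes. Pttg1 encodes securin, the inhibitor of separase in cell division, and averaged 1.02 ± 0.316 CPM in DBA/2 and 25.4 ± 1.61 CPM in C57BL/6 (SD, n = 3 each). Myo7a, an unconventional myosin, averaged 6.57 ± 0.817 CPM in DBA/2 and 32.2 ± 1.17 CPM in C57BL/6 (SD, n = 3 each). H2-T22, a nonclassical class I histocompatibility gene, averaged 6.45 ± 0.645 CPM in DBA/2 and 15.8 ± 0.581 CPM in C57BL/6, and it shares sequence with H2-T10 and with an overlapping antisense gene. All 3 were lower in every DBA/2 library than in any C57BL/6 library. The 6 libraries form a group for each strain, so r mostly reflects the strain difference, and it is given as a description.

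Snhg11 (ENSMUSG00000044349, chr2:158375638-158386145, plus strand) is annotated as protein-coding in GENCODE, although it is known as a snoRNA host. It had 1312, 1471 and 1447 CPM in the DBA/2 libraries, against 2621, 2960 and 2857 CPM in the C57BL/6 libraries. Every DBA/2 library was lower than every C57BL/6 library, and the C57BL/6 mean was 1.995 times the DBA/2 mean. Its log2 fold change of -0.997 ± 0.053 had the smallest SE among the members, and it was called under all 17 alternatives. At 167 ± 10.2 FPKM in DBA/2 and 327 ± 20.7 FPKM in C57BL/6 (SD, n = 3 each), it ranked 72 of 51912 genes by mean FPKM over both strains.

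Small nucleolar RNAs are usually cut from the introns of their host, and those of the H/ACA class end in a short tail that holds ACA. Both annotated snoRNA genes within Snhg11 are printed, from GENCODE M21 (GRCm38) and 5′ to 3′, to show the RNAs that this host carries. Capitals mark the closing ACA, which was searched on the transcript strand within the last 6 bases.
Gm25129: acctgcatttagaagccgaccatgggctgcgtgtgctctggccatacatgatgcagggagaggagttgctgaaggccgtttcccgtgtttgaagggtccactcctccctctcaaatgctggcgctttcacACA
Gm25187: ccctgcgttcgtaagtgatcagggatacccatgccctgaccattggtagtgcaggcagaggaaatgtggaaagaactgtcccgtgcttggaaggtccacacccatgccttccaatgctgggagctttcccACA
They lie on the plus strand at chr2:158379534-158379666 and chr2:158378222-158378354, and each is 133 bases long. Of 919 annotated snoRNA transcripts of at least 120 bases, 61.9% hold ACA in that window. Gm25129 had 17, 13 and 22 counts in the DBA/2 libraries, against 50, 39 and 75 in the C57BL/6 libraries. It was lower in every DBA/2 library, as its host was, with a log2 fold change of -1.55 ± 0.27 and an adjusted p of 0.000121 by edgeR's quasi-likelihood test. Gm25187, unlike Gm25129, lies wholly within exons of Snhg11, and it had 0 counts in all 6 libraries. As with other genes inside exons of a member, this 0 was not read as absence of the snoRNA. Reads of unspliced Snhg11 RNA would also be counted at Gm25129, and their part in the result was not tested.

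The other snoRNA host genes give the setting for Snhg11. Of 17 tested, 0 were called higher and 4 lower in DBA/2, or 23.5% of those tested, beside 22.8% of all genes tested. Their median log2 fold change was 0.11, beside 0.0027 over all genes tested. Gas5, which hosts box C/D snoRNAs and is degraded on ribosomes, averaged 30.8 ± 2.71 CPM in DBA/2 and 68.3 ± 3.37 CPM in C57BL/6, with a log2 fold change of -1.14 and an adjusted p of 6.12e-12 by edgeR. Snhg6 averaged 3.36 ± 0.524 CPM in DBA/2 and 7.34 ± 0.534 CPM in C57BL/6, with a log2 fold change of -1.12 and an adjusted p of 1.45e-05 by edgeR. Snhg14, the long host that also runs antisense to Ube3a, averaged 90.2 ± 6.30 CPM in DBA/2 and 148 ± 4.97 CPM in C57BL/6, with a log2 fold change of -0.72 and an adjusted p of 4.49e-10 by edgeR. Reads of Snhg14 and of genes on its opposite strand cannot be told apart with this kit.

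**Figure D5:**
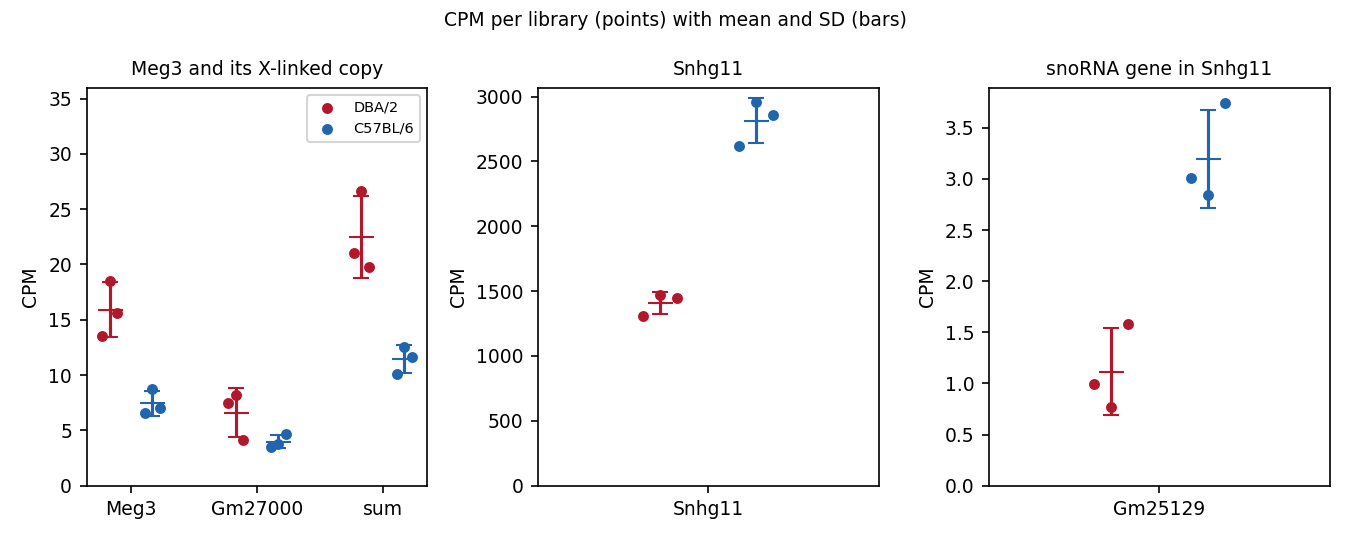
CPM per library, with mean and SD (n = 3 each), of Meg3, its X-linked copy Gm27000 and their sum (left), Snhg11 (middle) and the snoRNA gene Gm25129 within it (right). Meg3 is higher in DBA/2, Gm27000 overlaps between the strains, and Snhg11 and Gm25129 are lower in DBA/2.

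Neat1 and Malat1 are neighbours on the minus strand of chromosome 19, at chr19:5824708-5845478 for Neat1 (ENSMUSG00000092274) and chr19:5795690-5802672 for Malat1 (ENSMUSG00000092341). Neat1 had 45.15, 36.86 and 26.22 CPM in the DBA/2 libraries, against 169.92, 161.53 and 141.07 CPM in the C57BL/6 libraries. All DBA/2 libraries were lower than all C57BL/6 libraries, and the DBA/2 libraries spread more among themselves, with a coefficient of variation of 26.3% in DBA/2 and 9.42% in C57BL/6. The log2 fold change was -2.11 ± 0.22, and the C57BL/6 mean was 4.37 times the DBA/2 mean. With C57BL/6 replicates 1 and 3 left out, 1 C57BL/6 library remained and Neat1 was not called, at a similar -2.15 ± 0.34.

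Malat1 had 1685, 1335 and 1590 CPM in the DBA/2 libraries, against 1880, 1893 and 1518 CPM in the C57BL/6 libraries. The strains overlapped, because C57BL/6 replicate 3 was below DBA/2 replicates 1 and 3. Malat1 had a log2 fold change of -0.20 ± 0.13 and was not called. Leaving out C57BL/6 replicate 3 gave -0.29 ± 0.08, which was called, so this library decides the call. Malat1 was the most abundant member per length in DBA/2, at 221 ± 25.6 FPKM, and the second in C57BL/6, at 250 ± 29.5 FPKM (SD, n = 3 each).

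The genes of paraspeckle proteins, which bind Neat1, were set beside it. Of 20 tested, 1 was called higher and 0 lower in DBA/2, or 5.0%, beside 22.8% of all genes tested. The median log2 fold change of the 20 paraspeckle protein genes was 0.04. Without C57BL/6 replicate 3, 0 of these genes were called.

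Among nuclear speckle and splicing genes, which encode partners of Malat1 and Miat, 4 of 18 tested were called higher and 2 lower in DBA/2. That was 33.3% of those tested, beside 22.8% of all genes tested. The median log2 fold change of the list was 0.02. Rnps1, a splicing activator of the exon junction complex, averaged 29.9 ± 0.938 CPM in DBA/2 and 105 ± 4.92 CPM in C57BL/6, with a log2 fold change of -1.81 and an adjusted p of 1.47e-16 by edgeR. Srsf1, a serine/arginine-rich splicing factor, averaged 9.13 ± 0.550 CPM in DBA/2 and 4.12 ± 0.10 CPM in C57BL/6, with a log2 fold change of 1.15 and an adjusted p of 1.43e-06 by edgeR. Acin1, which joins Rnps1 in a splicing complex, averaged 143 ± 5.68 CPM in DBA/2 and 179 ± 5.79 CPM in C57BL/6, with a log2 fold change of -0.32 and an adjusted p of 1.85e-05 by edgeR.

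Miat (ENSMUSG00000097767, chr5:112213228-112229395, minus strand) had 949, 949 and 1056 CPM in the DBA/2 libraries, against 892, 1033 and 973 CPM in the C57BL/6 libraries. The strains overlapped, and the log2 fold change of 0.03 ± 0.06 was smaller than its SE. Miat changed sign under some alternatives and was called under 0 of 17. Of its exons, 24.3% lie opposite Gm26953, which had 19, 19 and 20 counts in DBA/2 and 8, 13 and 21 counts in C57BL/6. Those counts are small beside the 14172 to 19498 counts of Miat per library. The kit does not mark strand, so the Gm26953 counts do not show how many reads of the shared exons came from either gene.

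Pantr1 (ENSMUSG00000060424, chr1:42590782-42694842, minus strand) had 34.11, 29.62 and 33.21 CPM in the DBA/2 libraries, against 29.79, 30.18 and 25.44 CPM in the C57BL/6 libraries. DBA/2 replicate 2 lay below C57BL/6 replicates 1 and 2, so the strains overlapped. Its log2 fold change was 0.19 ± 0.08 and it was not called. Leaving out DBA/2 replicate 2 gave 0.25 ± 0.09, which was called, so this library decides the call. Pou3f3, 926 bases away on the opposite strand, averaged 148 ± 4.26 CPM in DBA/2 and 142 ± 3.74 CPM in C57BL/6 and was not called, with a log2 fold change of 0.06 and an adjusted p of 0.396 by edgeR.

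Rmst (ENSMUSG00000112117, chr10:92071037-92165170, minus strand) had 40, 41 and 27 counts in the DBA/2 libraries, against 96, 79 and 108 counts in the C57BL/6 libraries. In length-scaled units it had 0.32, 0.33 and 0.26 FPKM in DBA/2, against 0.77, 0.77 and 0.72 FPKM in C57BL/6. All DBA/2 libraries were lower than all C57BL/6 libraries, and the spread within each strain was small. The log2 fold change was -1.32 ± 0.19. Of its exons, 26.3% lie opposite Gm26700, which had 0 counts in all 6 libraries. Of the 1957 exonic bases of Gm26700, 1955 lie within exons of Rmst, and the kit does not mark strand. Its 0 was therefore not read as absence of antisense reads at Rmst. Its span also holds 8 annotated genes of the class misc_RNA, which together had 42, 27 and 16 counts in DBA/2 and 37, 27 and 25 in C57BL/6, so their libraries overlapped while those of Rmst did not.

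Meg3 (ENSMUSG00000021268, chr12:109541001-109571726, plus strand, 18089 exonic bases) was the member called higher in DBA/2. It had 231, 314 and 217 counts in the DBA/2 libraries, against 109, 120 and 141 counts in the C57BL/6 libraries. Every DBA/2 library was above every C57BL/6 library. The values were 13.56, 18.49 and 15.63 CPM in DBA/2, against 6.56, 8.75 and 7.03 CPM in C57BL/6, and the log2 fold change was 1.11 ± 0.13. The DBA/2 mean was 2.13 times the C57BL/6 mean. Meg3 was low in both strains, at 0.76, 1.03 and 0.87 FPKM in DBA/2 and 0.36, 0.48 and 0.39 FPKM in C57BL/6, and it ranked 15990 of 51912 genes by mean FPKM. Meg3 is known as an abundant RNA of neurons, and the cause of its low level in this table was not tested.

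Meg3 has a near-identical copy on the X chromosome, Gm27000 (chrX:88759471-88760312, minus strand), whose whole 842 bases align to Meg3 at 99.9% identity with 1 mismatch. The 80 bases around that mismatch are printed because reads over the rest of the copy match both genes. They are from GENCODE M21 (GRCm38), 5′ to 3′, with the differing base in capitals.
Gm27000: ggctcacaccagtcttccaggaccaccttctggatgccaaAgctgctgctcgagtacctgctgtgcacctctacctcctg
Meg3: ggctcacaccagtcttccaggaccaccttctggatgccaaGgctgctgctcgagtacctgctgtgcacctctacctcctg
The windows lie at chrX:88760112-88760191 on the minus strand and chr12:109543726-109543805 on the plus strand. Counted from 1 at the 5′ end of the window, with the base of Gm27000 first, the difference is A41G. Gm27000 had 128, 139 and 57 counts in the DBA/2 libraries, against 58, 52 and 93 in the C57BL/6 libraries, and in CPM the strains overlapped. It was called, with a log2 fold change of 0.74 ± 0.22 and an adjusted p of 0.0225 by edgeR's quasi-likelihood test, and 8 of the alternatives lost the call. Summed with Gm27000, Meg3 had 22.5 ± 3.68 CPM in DBA/2 and 11.4 ± 1.26 CPM in C57BL/6 (SD, n = 3 each), and the strains stayed separate. How reads were shared between Meg3 and Gm27000 was not tested, and both values are uncertain.

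The genes most like Meg3 over the 6 libraries, by Pearson r of log2 CPM among 11529 genes, were Kcnv1 at 0.999, Celf2 at 0.995 and Sec61a2 at 0.993. Kcnv1, a modifier subunit of potassium channels, averaged 54.6 ± 1.97 CPM in DBA/2 and 45.0 ± 1.86 CPM in C57BL/6. Celf2, an RNA-binding protein that regulates splicing, averaged 645 ± 15.3 CPM in DBA/2 and 554 ± 14.6 CPM in C57BL/6. Sec61a2, a subunit of the translocation channel of the endoplasmic reticulum, averaged 82.5 ± 5.57 CPM in DBA/2 and 65.2 ± 3.78 CPM in C57BL/6. All 3 were higher in every DBA/2 library than in any C57BL/6 library, by less than Meg3 was. That was also so for 16.7% of all genes tested. Here too r mostly reflects the strain difference, so picking by r favours genes that separate in this way. The values are given as a description.

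Mirg (ENSMUSG00000097391, chr12:109729764-109749460, plus strand) lies in the same imprinted region. It had 32.88, 36.57 and 38.83 CPM in the DBA/2 libraries, against 34.79, 29.81 and 32.67 CPM in the C57BL/6 libraries. The strains overlapped, the log2 fold change was 0.15 ± 0.08, and Mirg was called under 0 of 17 alternatives. Mirg was above Meg3 per exonic length, at 4.98 ± 0.407 FPKM against 0.887 ± 0.136 FPKM in DBA/2. In C57BL/6 the values were 4.40 ± 0.338 FPKM for Mirg and 0.410 ± 0.0624 FPKM for Meg3. This order is uncertain, because the Meg3 values are uncertain and the cause of its low level was not tested.

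Mirg spans 14 miRNA hairpins of the RefSeq table (GRCm38.p6), with 26 mature miRNAs and 25 distinct seeds. A single seed was shared, by the pair printed here with the seed, bases 2 to 8, in capitals.
mmu-miR-453: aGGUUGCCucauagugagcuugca
mmu-miR-496a-5p: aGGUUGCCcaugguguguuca
They lie on the plus strand at chr12:109735669-109735692 and chr12:109739132-109739152. In the table, 15 miRNA genes lie in the span of Mirg, and 7 of them had a count. Together they had 40, 39 and 47 counts in DBA/2 and 43, 33 and 47 in C57BL/6, with overlapping libraries. The hairpin gene Mir453 had 5, 7 and 2 counts in DBA/2, against 16, 14 and 13 in C57BL/6, with a log2 fold change of -1.54 ± 0.46 and an adjusted p of 0.0163 by edgeR's quasi-likelihood test. That call was lost under 5 of its alternatives. Mir496a had 5, 6 and 13 counts in DBA/2 and 4, 2 and 8 in C57BL/6 and was below the filter. Both hairpins were picked for their shared seed, and counts at a hairpin gene do not measure the mature miRNA.

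Rian (ENSMUSG00000097451, chr12:109603940-109661716, plus strand) had 6, 8 and 3 counts in the DBA/2 libraries, against 3, 4 and 16 counts in the C57BL/6 libraries. The strains overlapped, and C57BL/6 replicate 3 held more than the other 2 C57BL/6 libraries together. These counts are near the floor of 3 counts, which corresponds to 0.149 to 0.217 CPM, and with so few counts no difference between the strains was detectable. Rian, like Meg3, is known as an RNA of the brain, and the cause of its low counts in this table, including how reads of genes that hold small RNA genes were counted, was not tested. The 13 snoRNA genes and 4 miRNA genes in its span had 0 counts in all 6 libraries. The 4 miRNA genes and some of the snoRNA genes share no exonic bases with Rian, and the cause of their 0 counts was not tested. Across the members, 27 annotated genes have exons wholly within the exons of a member, and all 27 had 0 counts, so a 0 at such a gene was not read as absence of the small RNA.

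A list of 11 other genes in and around the Dlk1-Dio3 region held 6 that were tested, and 0 were called higher and 2 lower in DBA/2. That was 33.3% of the few tested, beside 22.8% of all genes tested. The median log2 fold change of the list was -0.06. Both called genes, Slc25a47 and Wars, lie outside the interval from Dlk1 to Dio3, on the Dlk1 side, and Dio3 was the only listed gene within the interval that was tested. Slc25a47, a mitochondrial carrier, averaged 1.65 ± 0.403 CPM in DBA/2 and 3.30 ± 0.613 CPM in C57BL/6, with a log2 fold change of -0.97 and an adjusted p of 0.00445 by edgeR. Wars, the cytosolic tryptophanyl-tRNA synthetase, averaged 75.8 ± 0.708 CPM in DBA/2 and 88.3 ± 2.60 CPM in C57BL/6, with a log2 fold change of -0.22 and an adjusted p of 0.00344 by edgeR. Dlk1, a paternally expressed ligand gene, had 0, 0 and 0 counts in DBA/2 and 0, 0 and 4 in C57BL/6. Rtl1, a paternally expressed gene of retrotransposon origin that lies between Meg3 and Rian, had 1, 0 and 0 counts in DBA/2 and 0, 0 and 0 in C57BL/6. Dio3, a deiodinase that inactivates thyroid hormone, averaged 3.45 ± 0.845 CPM in DBA/2 and 4.38 ± 1.91 CPM in C57BL/6 and was not called, with an adjusted p of 0.410 by edgeR.

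Ordered by mean FPKM, the DBA/2 levels were 221 for Malat1, 167 for Snhg11, 107 for Miat, 7.30 for Pantr1, 4.98 for Mirg, 1.75 for Neat1, 0.887 for Meg3, 0.303 for Rmst, 0.0367 for 1500004A13Rik and 0.020 for Rian. Among neighbours in this order, only 1500004A13Rik and Rian had overlapping libraries. In C57BL/6 the FPKM levels were 327 for Snhg11, 250 for Malat1, 103 for Miat, 7.50 for Neat1, 6.32 for Pantr1, 5.76 for 1500004A13Rik, 4.40 for Mirg, 0.753 for Rmst, 0.410 for Meg3 and 0.0233 for Rian. Among these neighbours, only Pantr1 and 1500004A13Rik overlapped. Thus 1500004A13Rik stood beside Rian in DBA/2 and between Pantr1 and Mirg in C57BL/6, and Snhg11 and Malat1 held the top positions in opposite order. The positions of Meg3 and Rian rest on low levels whose cause was not tested.

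The 14 nearest tested protein-coding genes on either side of the members lay 926 to 1800095 bases away. Their median log2 fold change was -0.06. Of these 14 genes, 2 were called higher and 2 lower in DBA/2, or 28.6%, beside 22.8% of all genes tested. Gon4l, 1 of the 2 called higher, is described above, and its value is uncertain. Syt11, a synaptotagmin gene 7779 bases from 1500004A13Rik, averaged 659 ± 19.04 CPM in DBA/2 and 742 ± 27.3 CPM in C57BL/6, with a log2 fold change of -0.17 and an adjusted p of 0.00673 by edgeR. Ralgapb, 23703 bases from Snhg11 and coding for a subunit of a GTPase-activating complex, averaged 172 ± 4.16 CPM in DBA/2 and 155 ± 2.205 CPM in C57BL/6, with a log2 fold change of 0.16 and an adjusted p of 0.0152 by edgeR. Crybb1, a crystallin gene 26420 bases from Miat, averaged 1.07 ± 0.162 CPM in DBA/2 and 2.47 ± 0.527 CPM in C57BL/6, with a log2 fold change of -1.21 and an adjusted p of 0.00225 by edgeR. Syt11 was not called without C57BL/6 replicate 1, with an adjusted p of 0.0698, nor Ralgapb without C57BL/6 replicate 2, with an adjusted p of 0.0582, both by edgeR. Neat1 lies 4224 bases from Frmd8, which had a log2 fold change of -0.27 and an adjusted p of 0.0583 by edgeR and was not called.

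A list of 35 other named long noncoding RNAs held 27 that were tested, of which 5 were called higher and 3 lower in DBA/2. That was 29.6% of those tested, beside 22.8% of all genes tested. The median log2 fold change of the list was -0.01. Among those called, the largest changes by size were in Crnde at -1.55, with an adjusted p of 0.0133, Mirt1 at -1.07, with an adjusted p of 0.00119, and Tunar at -0.50, with an adjusted p of 0.000255, all by edgeR's quasi-likelihood test. Crnde averaged 0.316 ± 0.0382 CPM in DBA/2 and 0.937 ± 0.388 CPM in C57BL/6, and it was not called without C57BL/6 replicate 1, with an adjusted p of 0.133 by edgeR. Tunar, a neural RNA that GENCODE annotates as protein-coding, averaged 16.5 ± 1.24 CPM in DBA/2 and 23.2 ± 1.90 CPM in C57BL/6.

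Markers of cell types and neighbouring tissue also differed between the strains. Of 12 thalamus and habenula markers, 6 were called lower and 0 higher in DBA/2, and their summed level was 228 to 309 CPM in DBA/2 and 441 to 626 CPM in C57BL/6. Of 10 microglia markers, 6 were called lower and 0 higher, with sums of 299 to 327 CPM in DBA/2 and 384 to 417 CPM in C57BL/6. Of 12 myelin markers 3 were called lower and 0 higher, and the sums were 4758 to 6421 CPM in DBA/2 and 7068 to 8835 CPM in C57BL/6. Of 10 astrocyte markers 6 were called lower and 2 higher, with sums of 5172 to 5745 CPM in DBA/2 and 5068 to 5338 CPM in C57BL/6. The astrocyte sums overlapped between the strains. Slc1a2, 1 of the 2 called higher, made up most of these sums, at 3314 ± 281 CPM in DBA/2 and 2689 ± 50.1 CPM in C57BL/6. The overlap of the sums therefore says little about the 6 astrocyte markers called lower. Neuron markers, of which 2 of 12 were called lower and 0 higher, summed to 12135 to 12403 CPM in DBA/2 and 11606 to 12253 CPM in C57BL/6, and these sums overlapped. Of 10 choroid plexus markers 0 were called, with overlapping sums of 1256 to 2757 CPM in DBA/2 and 678 to 1525 CPM in C57BL/6. Of 10 early response genes, which neuronal activity induces, 6 were called lower and 0 higher, with sums of 390 to 563 CPM in DBA/2 and 683 to 742 CPM in C57BL/6. The thalamus and habenula, microglia, myelin and early response sums were lower in every DBA/2 library than in any C57BL/6 library. So were Neat1, Rmst, Snhg11 and 1500004A13Rik, and 20.1% of all genes tested taken singly. No marker in these lists was at 0 in all libraries, and their part in the results for the members was not tested.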

How the data were processed

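The authors deposited a table of raw counts per gene and FPKM values for 6 hippocampus libraries, 3 of DBA/2 and 3 of C57BL/6 mice. Reads were processed with Trimmomatic 0.30, HISAT2 2.0.1 and Cufflinks 2.2.1 on GRCm38, per the submitters' processing notes. For the counting program, its annotation and its strand setting, nothing is stated: not given in the sources used here. Deposited FPKM equalled the count scaled to exon length and library total within 0.005. The table's other 12 per-sample columns were not used. Strain came from the labels.

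Counts were tested with edgeR 4.0.16 in R 4.3.3 (TMM factors, filterByExpr by strain, robust quasi-likelihood fit), with Benjamini-Hochberg adjustment over 17517 genes and calls at an adjusted p under 0.05. CPM used TMM-scaled library sizes. The procedure was tested on simulated data. Alternatives were other scalings and filters, DESeq2 1.42.0, limma 3.58.1 (voom, and log2 of FPKM plus a pseudocount of 1 or 0.1), a replicate block and leaving out each library. Leaving out both C57BL/6 libraries rich in Xist, and summing counts of copies, were chosen after seeing the data.

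Positions and transcripts are from GENCODE M21, which held 99.5% of the table's gene IDs, and miRNAs from RefSeq (GRCm38.p6). Copies were sought with BLAST 2.17.0 (at least 95% identity over at least 200 bases). Members and lists were chosen with earlier results of these data known. Named genes were the members, up to 3 called genes of largest change per list, called nearest genes and the 3 genes most like 1500004A13Rik or Meg3 with a mean of at least 5 CPM. The genes that overlap, copy or lie within a member are also named. A gene that this rule names is not reported here. Libraries held 13839366 to 20185683 counts. The floor of 3 counts covers counting error only.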

Additional observations from a re-analysis of the deposited data

How the results depend on the processing

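Between 4 and 6 members were called over all alternatives. The main fit did not treat the replicate numbers as pairs. Deviations of same-numbered libraries correlated at 0.217, -0.222 and -0.0375 over 12332 genes. DBA/2 replicate 3 and C57BL/6 replicate 2 correlated at 0.243. Deviations within a strain sum to 0, so these correlations constrain each other and cannot decide whether libraries were paired. With the replicate block 3827 genes and 5 members were called, against 4000 and 5 without it. Leaving out both C57BL/6 libraries rich in Xist left 1 C57BL/6 library, assumed to vary like the DBA/2 libraries. It gave 2012 calls, 691 higher and 1321 lower, with 1 among genes in and around the Dlk1-Dio3 region, 5 among other long noncoding RNAs, 0 among paraspeckle genes, 3 among speckle and splicing genes and 1 among nearest genes. It also gave Miat -0.066 and Dio3 0.033, both reversed. Dio3 was also reversed without C57BL/6 replicate 3 (0.069), and Miat without DBA/2 replicate 3 (-0.022) and without C57BL/6 replicate 1 (-0.025); leaving out 1 library at a time gave -0.025 to 0.081 for Miat and -0.58 to 0.069 for Dio3. Leaving out 1 library at a time gave 1 to 2 members called higher, 5 to 9 other long noncoding RNAs and 0 to 1 paraspeckle genes. Paraspeckle genes numbered 2 with library size alone and in both FPKM fits, and genes in and around the Dlk1-Dio3 region 1 with a mean of at least 5 CPM. A pseudocount shrinks low genes by construction: with log2(FPKM + 1) the log2 fold changes were -2.70 for 1500004A13Rik, 0.42 for Meg3 and -0.43 for Rmst. With copies summed, 1500004A13Rik was at -4.70 and Meg3 at 0.99. The genes most like a member by deviations from the strain means shared 0 of 3 with those given for 1500004A13Rik and 1 of 3 for Meg3. Counts were few for Rian in both strains and for 1500004A13Rik in DBA/2, where they held 3 to 15 counts per library, and the cause of the low Rian counts was not tested.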
